A study of Mus musculus with 36 samples.

Results

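Dystrophin and the proteins that hold it at the muscle fibre membrane were followed through 10 genes, Dmd, Utrn, Dag1, Sgca, Sgcb, Sgce, Sspn, Dtna, Sntb1 and Nos1, taken as every probe set whose annotation gives one of these symbols. This yielded 14 of the 12488 probe sets on the array, with a pair of probe sets each for Utrn, Dag1, Sgca and Dtna and 1 for each of the others. Total RNA of mouse diaphragm, the main breathing muscle, had been hybridised to 1-colour Affymetrix arrays. Control mice and mdx mice were compared at 7, 14, 23, 28, 56 and 112 days of age, with 3 arrays in each of the 12 groups. The mdx mouse carries a nonsense point mutation of Dmd in all its cells, so the transcript is made and can be read by a probe set, while full-length dystrophin protein is not. The labels describe the control animals only as control, and they give no strain, no sex and no number of animals behind an array. Arrays of a group may therefore be technical repeats, in which case the p-values measure technical spread only. Whether a whole-muscle sample held fewer cells of a type or less RNA per cell cannot be told apart from these signals.

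Dystrophin ties the actin cytoskeleton of the fibre to dystroglycan in its membrane, and dystroglycan in turn binds laminin in the surrounding basement membrane. The sarcoglycans and sarcospan sit beside dystroglycan in the membrane, and dystrobrevin, the syntrophins and neuronal nitric oxide synthase are held on the inner side. Without dystrophin protein, the other proteins of the complex are known to be reduced at the membrane of mdx fibres, and utrophin, a close relative of dystrophin found at the nerve-muscle junction and in regenerating fibres, can take its place in part. The arrays measured mRNA and say nothing of these proteins.

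All 14 probe sets passed the filter on low signal, which asked for at least 3 of the 36 arrays above 374.5, the signal at percentile 40 of all values. Of the 36 arrays, 22 lay above that signal for Dmd, 14 for Nos1, 5 for Sntb1 and 5 for the Dtna probe set 92184_at, so these 4 were read near the low end of the scale. For Dmd all 3 arrays lay above it in controls of 7, 14, 28, 56 and 112 days, but among mdx groups only at 7 days. The mdx arrays of 23, 28 and 56 days all lay below it, reading at most 204, 337 and 244. The Utrn probe set 92508_s_at lay above it on 31 arrays, and the other 9 probe sets did so on all 36. Signals are the deposited intensities on a linear scale. Differences are mdx minus control on the scale of log2(signal + 32), which understates the change of a dim probe set, and each p comes from limma, adjusted by Benjamini and Hochberg's method over all 9291 probe sets tested. A probe set with an adjusted p under 0.05 is called lower or higher. A level is compared only within a probe set, never between probe sets.

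The promoter sequences of the members that the results below turn on are printed here, since 3 of them, Dmd, Sgca and Sspn, were lower in mdx as a mean over the ages and Utrn was not called. Each window runs from 250 bases before to 50 bases after a transcription start of the RefSeq annotation on GRCm38.p6, written 5′ to 3′ on the strand of the gene. Capitals mark matches to the E-box CANNTG, the letters bound by myogenic factors such as MyoD among many other proteins.
Dmd, chrX:82948620-82948919, plus strand: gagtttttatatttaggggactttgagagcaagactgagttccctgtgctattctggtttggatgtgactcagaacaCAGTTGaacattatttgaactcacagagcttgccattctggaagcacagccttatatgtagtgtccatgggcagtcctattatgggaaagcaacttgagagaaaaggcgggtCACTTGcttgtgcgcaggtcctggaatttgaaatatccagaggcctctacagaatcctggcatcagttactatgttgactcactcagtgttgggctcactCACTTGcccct
Utrn, chr10:12861686-12861985, minus strand: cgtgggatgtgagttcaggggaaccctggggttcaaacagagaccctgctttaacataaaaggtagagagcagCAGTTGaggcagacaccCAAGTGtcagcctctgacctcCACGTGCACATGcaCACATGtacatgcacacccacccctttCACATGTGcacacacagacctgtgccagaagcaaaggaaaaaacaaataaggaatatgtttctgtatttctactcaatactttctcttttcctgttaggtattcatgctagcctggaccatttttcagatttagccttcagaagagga
Sgca, chr11:94976278-94976577, minus strand: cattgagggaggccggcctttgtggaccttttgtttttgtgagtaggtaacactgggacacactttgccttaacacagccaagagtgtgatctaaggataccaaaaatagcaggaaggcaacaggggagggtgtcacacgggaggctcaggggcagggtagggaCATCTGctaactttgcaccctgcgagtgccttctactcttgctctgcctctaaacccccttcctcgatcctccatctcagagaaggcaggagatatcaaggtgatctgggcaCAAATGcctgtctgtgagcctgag
Sspn, chr6:145931623-145931922, plus strand: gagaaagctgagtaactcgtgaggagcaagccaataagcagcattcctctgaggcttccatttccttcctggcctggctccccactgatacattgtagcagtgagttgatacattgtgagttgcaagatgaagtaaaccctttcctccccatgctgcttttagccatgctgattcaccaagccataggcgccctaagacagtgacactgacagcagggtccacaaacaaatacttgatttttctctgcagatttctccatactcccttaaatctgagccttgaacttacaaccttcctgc
The printed Dmd window held 3 E-box matches, the Utrn window 7, some of them overlapping, the Sgca window 2 and the printed Sspn window 0. At the other annotated start, not printed, the Dmd window held 0 matches and the Sspn window 1. Over all genes 7 of the 10 had a promoter entry, with 10 windows because Dmd, Dag1 and Sspn have 2 starts each. An E-box stood in 7 of the 10 windows, against 72.3% of all 32851 mouse windows of this length. The MEF2 letters, CTA and TAG with 4 bases between them, stood in 0 of the 10, against 3.69% of all windows, and the MCAT letters CATTCC in 2, both of Sspn, against 14.7%. The N-box TTCCGG, letters known from genes active at the nerve-muscle junction, stood in 0, against 14.9%. Utrn had 1 window, so letters at any other start of the gene, or farther from this start, were not searched. Both strands were searched, and a match is a description of letters only.

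Dmd (93623_at) was the member with the largest fall. At 56 days the 3 control arrays read 551, 669 and 800.2 and the 3 mdx arrays 182, 193 and 244, so that the mdx mean was 30.6% of the control mean. At 23 days the control arrays read 330.0, 465 and 611 and the mdx arrays 139, 169 and 204, an mdx mean of 36.4%. The groups were fully apart at both ages, with every mdx array below every control array.

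At 14 days the control arrays read 604, 711 and 1014.5 for Dmd and the mdx arrays 261, 264 and 466, again without overlap, an mdx mean of 42.5%. At 28 days the control arrays read 454, 482 and 533 and the mdx arrays 271, 293 and 337, an mdx mean of 61.3% with no overlap. At 7 days the control arrays read 648, 752 and 757 and the mdx arrays 407, 439.8 and 712. Here 1 mdx array lay among the controls, and the mdx mean was 72.3% of control. The 112-day control arrays read 447, 763 and 1026 and the mdx arrays 280.5, 311 and 548, an mdx mean of 50.9% with 1 mdx array above the lowest control. In all, 16 of the 18 mdx arrays lay below every control array of their own age.

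As a mean over the 6 ages Dmd was lower in mdx by a log2 difference of -1.01 ± 0.122 (SE; 95% interval -1.26 to -0.76; adjusted p = 2.22e-07). Among the 9291 probe sets it had the 11th lowest mean difference and the 128th lowest p. Among single ages, 3 passed the threshold. These were 56 days, with a difference of -1.56 ± 0.299 (adjusted p = 0.000455), 23 days, with -1.28 (adjusted p = 0.00954), and 112 days, with -0.90 (adjusted p = 0.0452). The differences of -0.48, -1.17 and -0.65 at 7, 14 and 28 days were not called (adjusted p of 0.577, 0.13 and 0.337). The 56-day call and the mean were kept in every fit that left out 1 array. At 23 days it missed the threshold when control replicate 2 (leaving -1.08, adjusted p = 0.091) or mdx replicate 1 (leaving -1.16, adjusted p = 0.0888) was taken out. At 112 days it did so when control replicate 1 (leaving -0.64, adjusted p = 0.232), control replicate 2 (-0.85, adjusted p = 0.121), mdx replicate 1 (-0.73, adjusted p = 0.156) or mdx replicate 2 (-0.80, adjusted p = 0.148) was taken out, and also in 9 fits that lacked an array of another age, where the difference stayed the same (adjusted p from 0.0505 to 0.0525).

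The size of the Dmd fall was not shown to depend on age (F test, adjusted p = 0.344). The difference at 56 and 112 days minus that at 7 and 14 days was -0.40 (95% interval -1.01 to 0.21, adjusted p = 0.441). Control Dmd was not called as changing across ages (adjusted p = 0.147), its group means running from 468.7 at 23 days to 776.4 at 14 days. In mdx it was called as changing (adjusted p = 0.00263), from 170.8 at 23 days to 519.8 at 7 days, a call lost with the replicate number as a block. The 23-day arrays of both genotypes had the lowest median signals of the series, 450.6 to 515.2, whose part in these minima was not tested.

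Utrophin transcript did not differ by a call between the genotypes at any age, by either probe set. For 92507_at the mean difference was -0.01 ± 0.113 (95% interval -0.24 to 0.22, adjusted p = 0.978), an interval that spans a ratio of mdx to control from 0.848 to 1.17. At 7 days the control arrays read 1020.1, 1096 and 1105 and the mdx arrays 665, 862 and 1094.5. At 112 days the control arrays read 398, 533 and 674 and the mdx arrays 599, 684 and 734.5. The ranges overlapped at these ages and at the other 4. The mdx mean was 81.4% of control at 7 days and 126% at 112 days.

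The Utrn probe set 92508_s_at gave a mean difference of -0.09 ± 0.16 (95% interval -0.41 to 0.24, adjusted p = 0.773). At 23 days the control arrays read 564, 605.5 and 677 and the mdx arrays 138, 236 and 688, so 2 mdx arrays lay below all controls and 1 above them. At 56 days the control arrays read 371, 509.7 and 608 and the mdx arrays 498, 676 and 878. At 112 days the control arrays read 188, 224 and 573 and the mdx arrays 383, 389 and 925. The mdx mean at these 3 ages was 57.5%, 138% and 172% of control, with adjusted p of 0.187, 0.467 and 0.217. The 23-day difference was -1.01 over all arrays and was called without mdx replicate 3 (-1.60, adjusted p = 0.00698) or with array weights (-1.58, adjusted p = 0.000314). For this probe set the differences at 56 and 112 days lay above those at 7 and 14 days by 0.89 ± 0.391, which was not a call (95% interval 0.10 to 1.69, adjusted p = 0.143).

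In control diaphragm the utrophin mean was lowest at 112 days. The control mean of 92507_at was 1074 ± 46.6 (SD, n = 3) at 7 days and 534.6 ± 138 at 112 days, a level of 49.8% of the youngest age, and that of 92508_s_at was 782 ± 143 and 328 ± 213, or 41.9%. Both probe sets were called as changing across the control ages (adjusted p = 0.0305 and 0.0421), and neither was across the mdx ages (adjusted p = 0.369 and 0.105). The control calls were not kept throughout: 92507_at lost its call in 4 of the 36 fits without 1 array, namely without any of the 3 control arrays of 7 days or without control replicate 2 of 112 days. The call of 92508_s_at was lost in 10 such fits, each lacking a control array: replicates 2 and 3 of 7 days, replicate 2 of 14 days, any of 23 days, replicate 3 of 28 days, replicate 1 of 56 days, or replicates 2 and 3 of 112 days. Both calls were also lost without the arrays high in albumin and with the Gapdh ratio, both described further on, as a covariate. With the replicate number as a block both were lost too, and that of 92508_s_at also with no filter or with array weights. Whether the ageing differs between genotypes is asked by the test of dependence on age, which called neither (adjusted p = 0.604 and 0.201). At 112 days the mdx arrays stood at 77% and 84.5% of their 7-day means.

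**Figure D1:**
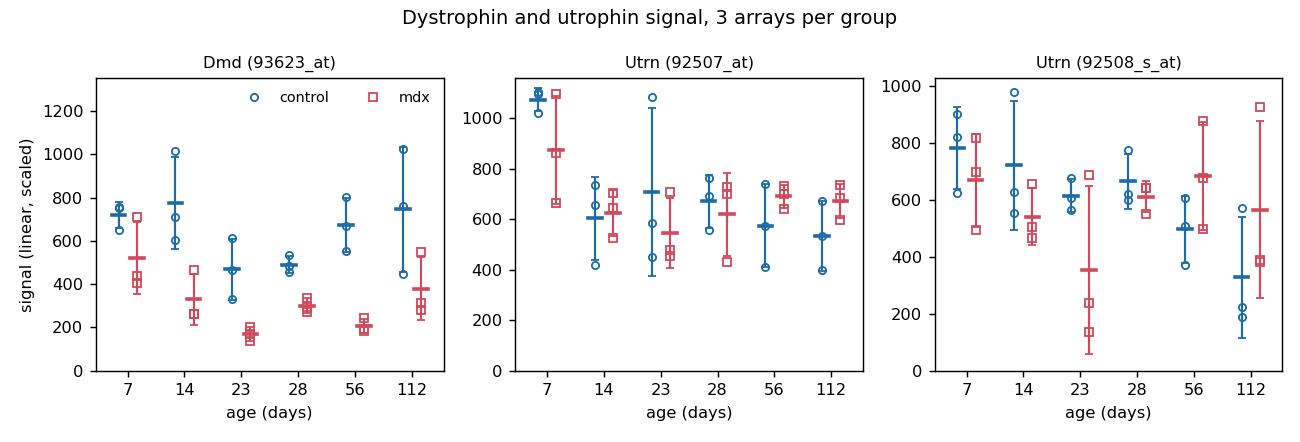
Signal (linear scale) of the Dmd probe set and both Utrn probe sets against age in days, for control and mdx; each point is 1 array, and lines and bars give the mean and SD of 3 arrays. The mdx points of Dmd lie below the control points at every age except for 1 array each at 7 and 112 days, while those of Utrn overlap the controls at every age.

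Dystroglycan, the laminin receptor of the complex, is made from the single gene Dag1, and its transcript differed little between genotypes. For 101109_at the mean difference was 0.01 ± 0.0478 (95% interval -0.09 to 0.10, adjusted p = 0.958), a range of mdx to control ratios from 0.938 to 1.07, the narrowest of the 14. The control arrays read 15638, 16429 and 16961 at 7 days and 9840.4, 10499 and 11234 at 112 days. The mdx arrays read 15325, 15507 and 15746 at 7 days and 9483.5, 12120.5 and 12413 at 112 days. The level changed with age in both genotypes, ending at 64.4% of the 7-day mean in controls (adjusted p = 0.00124 across ages) and at 73% in mdx (adjusted p = 0.021). The mdx call was lost without mdx replicate 3 of 112 days, and both calls without the arrays high in albumin or with the replicate number as a block.

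The other Dag1 probe set, 161183_at, also gave no call between genotypes (0.06 ± 0.0696, 95% interval -0.09 to 0.20, adjusted p = 0.652) but followed another course with age. Its control arrays read 3114, 3712 and 3928 at 14 days, while the 28-day arrays read 1889, 1922 and 2481, and the 112-day arrays read 3329, 3419.9 and 3748. The oldest control mean was 133% of the youngest, against 64.4% on 101109_at. Over the 36 arrays the pair correlated with r = -0.19, and with r = -0.30 once each group mean was taken away. The part of the transcript each probe set reads was not established here.

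Among the sarcoglycans, Sgca, whose product alpha-sarcoglycan is found in striated muscle, was lower in mdx by 1 of its 2 probe sets. For 160631_s_at the mean difference was -0.27 ± 0.0628 (95% interval -0.40 to -0.14, adjusted p = 0.00208). At 56 days the control arrays read 6778, 7522 and 8169 and the mdx arrays 4241, 4860.5 and 5339.5, an mdx mean of 64.3% and a called fall (-0.64 ± 0.154, adjusted p = 0.00433). At 23 days the control arrays read 9933, 10153 and 10275 and the mdx arrays 7012, 7754 and 8152.5, a mean of 75.5% that was not called (-0.41, adjusted p = 0.175).

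Every mdx array of Sgca 160631_s_at lay below every control array at 7, 23, 28 and 56 days. At 28 days the gap was narrow, with the highest mdx array at 6994 and the lowest control at 7004. At 14 days the order was the other way on average, with control arrays of 3814, 4339 and 5631, mdx arrays of 4408, 5393 and 5436 and an mdx mean of 111%. The second probe set, 103395_at, gave a mean difference of -0.19 ± 0.0864 (95% interval -0.36 to -0.01, adjusted p = 0.142). At 23 days its control arrays read 9024, 9103 and 10707 and its mdx arrays 6726, 8698 and 8749, without overlap. At 56 days its control arrays of 5062, 5485.5 and 6965 overlapped its mdx arrays of 4459, 4973 and 5981. The 2 probe sets correlated with r = 0.79 over the 36 arrays and 0.32 within groups. The difference between the effects on the 2 probe sets was not tested.

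Sspn, the tetraspanin-like membrane protein sarcospan, was lower in mdx, with its only call for a single age at 56 days. At that age the control arrays read 10166, 10714 and 11512 and the mdx arrays 6153, 6463 and 6851, an mdx mean of 60.1% of control (-0.73 ± 0.131, adjusted p = 0.000211). The gap between the highest mdx and the lowest control array was wider than the range of either group. At 28 days the control arrays read 11206.5, 12723 and 14706 and the mdx arrays 9004.5, 10542 and 11314, which overlap narrowly, and the difference of -0.32 was not called (adjusted p = 0.25). At 112 days the control arrays read 7781, 8096 and 9511.5 and the mdx arrays 6610.2, 7883 and 8029, which overlap, and -0.17 was not called (adjusted p = 0.445). At 7, 14 and 23 days the mdx means were 93.8%, 98.1% and 93.7% of control.

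As a mean over ages Sspn was lower by -0.24 ± 0.0534 (95% interval -0.35 to -0.13, adjusted p = 0.00131), with a lower mdx mean at each of the 6 ages. Its difference at 56 and 112 days lay below that at 7 and 14 days by -0.39 ± 0.131 (95% interval -0.65 to -0.12, adjusted p = 0.0484). This was the only member called for that contrast. The call was lost in 23 of the 36 fits that left out 1 array, including arrays of 23 and 28 days that the contrast does not use, with differences from -0.46 to -0.33 over all 36 and a highest adjusted p of 0.102.

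Muscle and other cell markers differed at the ages at which Dmd was called, and also at 28 days, at which it was not. Of 12 markers of mature fibres, such as Acta1, Ckm and Tnnt3, 2 were called lower at 56 days (Pygm and Actn3) and 0 higher, and their median difference was -0.68 against 0.15 for all tested probe sets. The summed signal of the 12 ran from 265919 to 389764 in controls and from 123006 to 327623 in mdx. The 9 markers of regenerating fibres, such as the embryonic myosin Myh3, were all called higher, with sums of 5673 to 7318 in controls and 43182 to 52600 in mdx. Of 9 macrophage markers tested, 8 were called higher, and the sums over 10 ran from 15902 to 18717 and from 49471 to 59962. At 23 and 112 days the 9 regenerating fibre markers were again all called higher, with median differences of 2.06 and 2.79, and so were 9 and 7 of the 9 macrophage markers. Of the 12 mature fibre markers limma called 0 at either of these ages, 2 and 1 had an unadjusted p under 0.05, and the medians were -0.37 and -0.07. At 28 days 8 of the 9 regenerating fibre markers (median 3.21) and 7 of the 9 macrophage markers (median 1.74) were called higher. Of the mature fibre markers 0 were called there (median -0.19). At 7 and 14 days 0 of the regenerating fibre markers were called, and 0 and 2 of the macrophage markers were called higher. The part of these shifts in the falls of Dmd at 23, 56 and 112 days and of Sgca and Sspn at 56 days was not tested.

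Sgcb, the beta-sarcoglycan found in the core of the sarcoglycan group, had a mean difference of 0.02 ± 0.0946 (95% interval -0.18 to 0.21, adjusted p = 0.929). At 7 days the control arrays read 2271, 2506 and 2541 and the mdx arrays 1622, 1725 and 1998.5, all mdx lower. The 112-day control arrays read 754.5, 1089 and 1221 and the mdx arrays 1319.6, 1466 and 1745, all mdx higher. Neither difference was called (-0.45, adjusted p = 0.494, and 0.57, adjusted p = 0.111). With the Gapdh 3′ to 5′ ratio as a covariate, in which the 7-day groups do not overlap, the 7-day difference was -0.15. The late minus early contrast of 0.53 ± 0.232 was not called either (95% interval 0.05 to 1.00, adjusted p = 0.146). Control Sgcb stood at 41.9% of its 7-day mean by 112 days and was called as changing with age (adjusted p = 0.000937). That call was lost without the albumin arrays, with the Gapdh covariate and with the replicate number as a block. In mdx Sgcb stood at 84.8% and was not called (adjusted p = 0.372).

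Sgce, epsilon-sarcoglycan, is related to alpha-sarcoglycan and made in many tissues. Its mean difference was -0.01 ± 0.0733 (95% interval -0.16 to 0.14, adjusted p = 0.939). At 14 days the control arrays read 2655, 2899 and 3084 and the mdx arrays 2106, 2309 and 2342, all mdx lower with no call (-0.35, adjusted p = 0.791). The 112-day control arrays read 1451, 1683 and 2107.5 and the mdx arrays 1928.5, 2080.2 and 2638.5, which overlap. By 112 days it stood at 47.4% of the 7-day mean in controls and 56.2% in mdx, and the change across ages was called in both (adjusted p = 0.000159 and 0.00191). The mdx call was lost with the replicate number as a block.

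On the inner side of the membrane, Dtna encodes alpha-dystrobrevin, a relative of dystrophin that binds it and the syntrophins. Its probe set 92183_at was the only member called higher at any age. At 56 days the control arrays read 833, 923 and 1429 and the mdx arrays 1234, 2054 and 2432, a difference of 0.81 ± 0.282 (adjusted p = 0.0458). The lowest mdx array lay below the highest control array. The mdx mean was 180% of control there and 74.9% at 112 days, when the control arrays read 1612, 2173 and 2212 and the mdx arrays 1389.9, 1475 and 1626 (-0.40, adjusted p = 0.406).

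Dtna missed the threshold at 56 days once control replicate 1 (0.73, adjusted p = 0.144), control replicate 2 (0.66, adjusted p = 0.183), mdx replicate 1 (0.61, adjusted p = 0.213) or mdx replicate 3 (0.73, adjusted p = 0.118) was taken out. It did so as well in 11 fits without an array of another age, at an unchanged difference and adjusted p up to 0.0518. As a mean over ages the difference was 0.13 ± 0.115 (95% interval -0.11 to 0.36, adjusted p = 0.51). The dim probe set 92184_at gave -0.11 ± 0.524 at 56 days (adjusted p = 0.905). The pair correlated with r = -0.47 over the 36 arrays and 0.09 within groups. The difference between the effects on the pair was not tested.

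Sntb1, beta-1-syntrophin, an adaptor that carries signalling proteins to the complex, was dim on most arrays. At 7 days the control arrays read 391, 416 and 499.5 and the mdx arrays 174, 262 and 306, all mdx lower (-0.77, adjusted p = 0.622). At 56 days the control arrays read 102, 116 and 148 and the mdx arrays 197, 327 and 384, all mdx higher (1.08, adjusted p = 0.161). Neither was called, nor was the late minus early contrast of 1.41 ± 0.535 (95% interval 0.32 to 2.50, adjusted p = 0.0834). The 7-day controls were the only group whose 3 arrays all lay above 374.5. The lowest group means were those of 23 days, at 32.2 ± 20.7 in controls and 71.6 ± 55.8 in mdx (SD, n = 3).

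Nos1, the neuronal nitric oxide synthase that the complex anchors in fast fibres, had a lower mdx mean at 5 ages and 103% of control at 7 days. The group difference on the log2 scale was below 0 at all 6. At 56 days the control arrays read 411, 453 and 630.1 and the mdx arrays 119, 335 and 425, with 2 of the mdx arrays below all controls. At 23 days the control arrays read 251, 391.5 and 455.5 and the mdx arrays 54.1, 54.6 and 433. That 23-day difference was -1.36 over all arrays (adjusted p = 0.181) and was called without mdx replicate 3 (-2.17, adjusted p = 0.00493). The mean difference of -0.51 ± 0.212 missed the threshold (95% interval -0.94 to -0.08, adjusted p = 0.0994). It passed without mdx replicate 3 at 23 days (-0.64, adjusted p = 0.0112) or control replicate 1 at 28 days (-0.59, adjusted p = 0.0493). Controls at 56 days were the only group with all 3 arrays above 374.5.

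**Figure D2:**
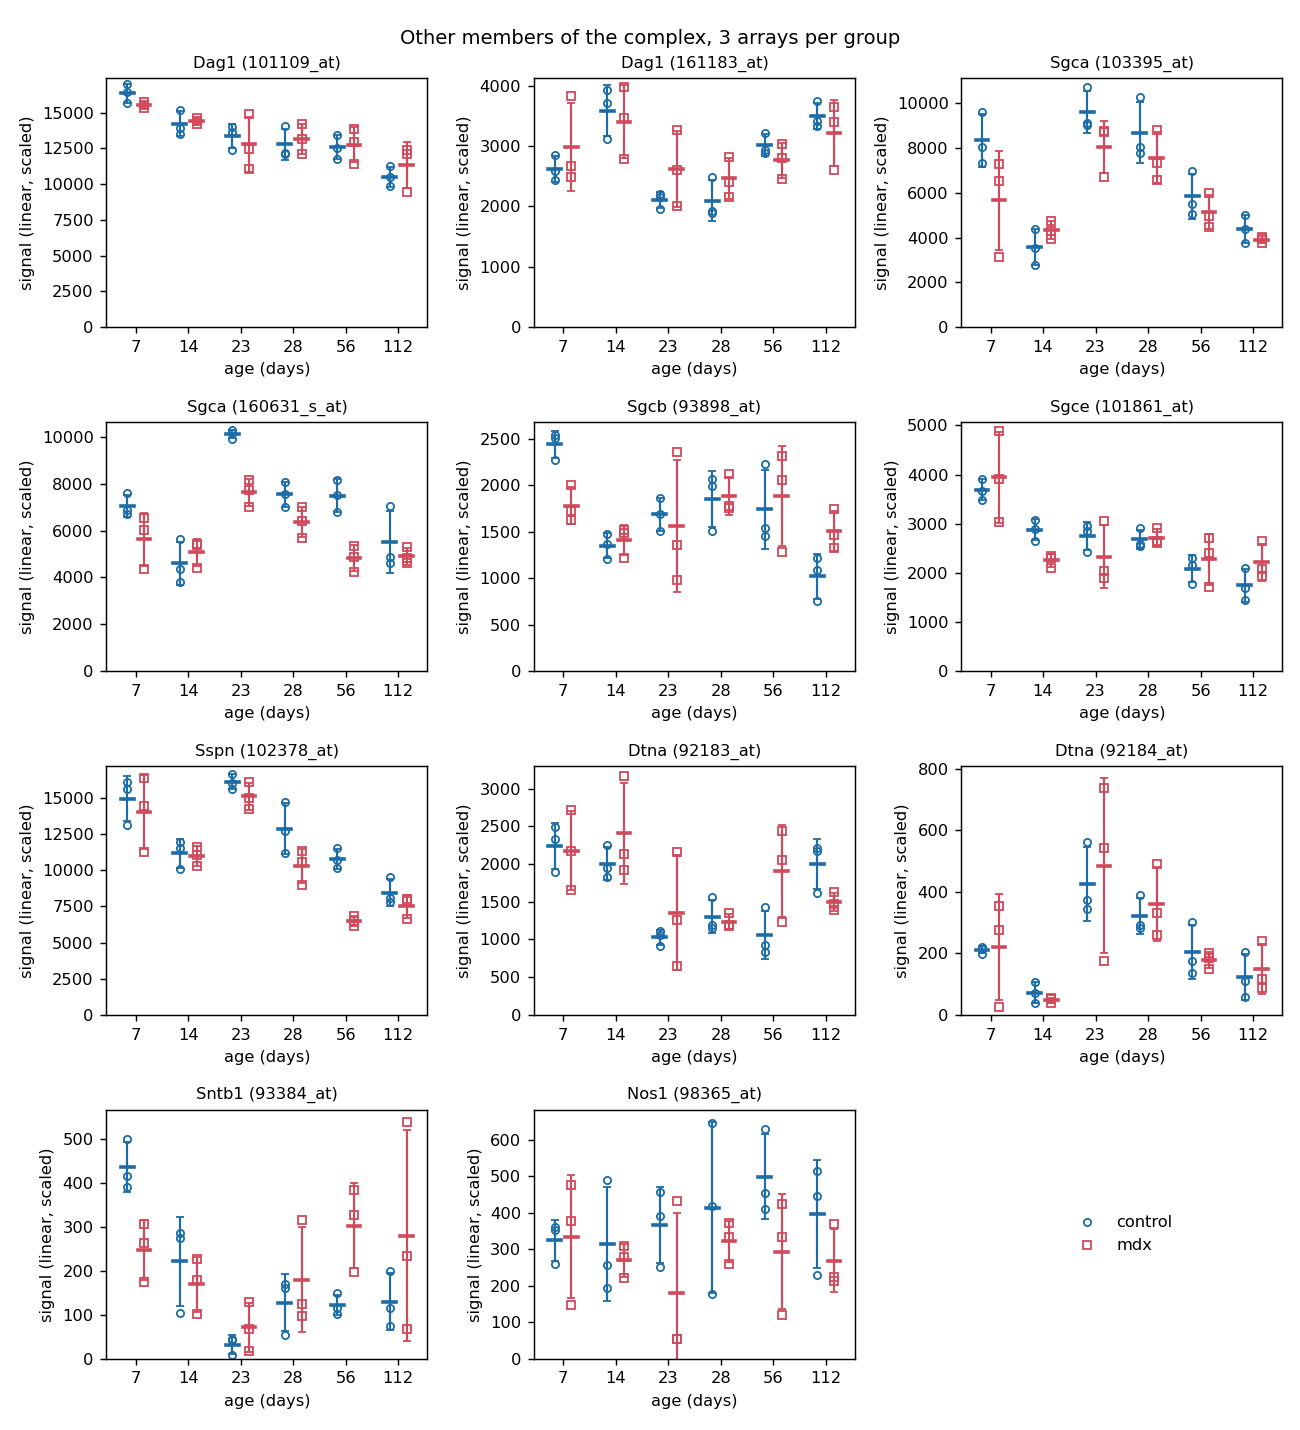
Signal (linear scale, 1 panel per probe set) against age in days for the 11 other member probe sets, control and mdx; points are arrays, and lines and bars the mean and SD of 3 arrays, with bars that would pass below 0 ending there. Sspn and Sgca 160631_s_at separate the genotypes at 56 days, and both Dag1 panels overlap throughout.

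Over the mean of the ages, 3 of the 14 probe sets were called lower, against 7.41% of all probe sets tested, and 0 higher, against 10.4%. The 3 were Dmd, Sgca 160631_s_at and Sspn. The median mean difference of the 14 was -0.04, against 0.03 over all probe sets. Nos1 and the other Sgca probe set were the next lowest, with intervals that lay below 0 and adjusted p above the threshold.

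**Figure D3:**
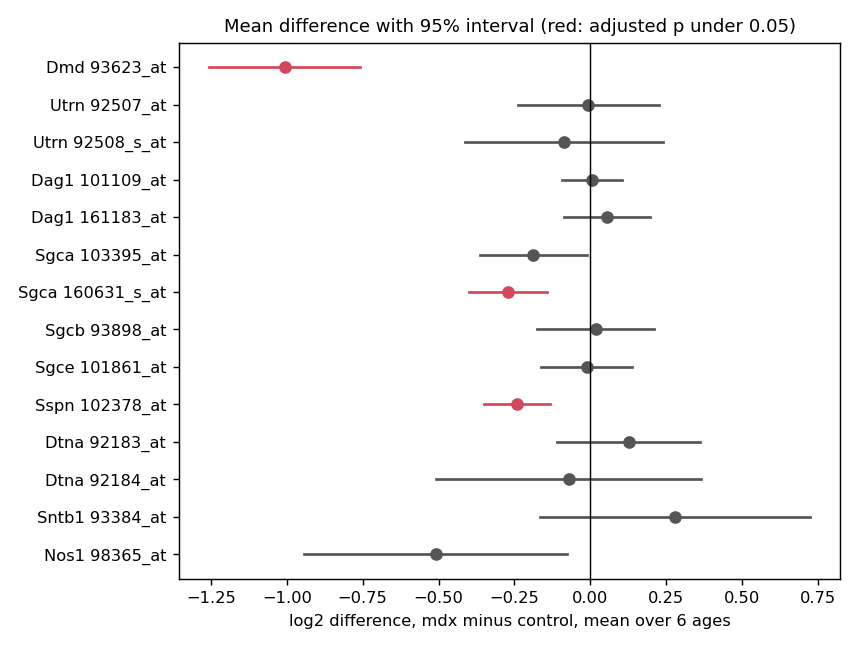
Log2 difference, mdx minus control, averaged over the 6 ages, for the 14 probe sets, with 95% intervals; red marks an adjusted p under 0.05. Dmd at -1.01 stands far below the others, and Sgca 160631_s_at at -0.27 and Sspn at -0.24 are the only further calls.

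By age the calls of members were most numerous at 56 days, which was also the age with the most calls over all probe sets. At 7 days 0 of the 14 were called, as were 0.463% of all probe sets, and at 14 days 0, with 0.194% of all. The members with an unadjusted p under 0.05 in limma numbered 2 and 1 at these ages. At 23 days 1 was called lower, Dmd, against 0.807% of all, and 0 higher, against 2.68%. At 28 days 0 were called, against 2.96%, with 2 at an unadjusted p under 0.05. At 56 days 3 were called lower, Dmd, Sspn and Sgca 160631_s_at, against 7.38%, and 1 higher, Dtna 92183_at, against 9.27%. At 112 days 1 was called lower, Dmd, against 4.52%, and 0 higher, against 7.65%. The median difference of the 14 was -0.05 at 56 days, where that of all probe sets was 0.15. The genotypes were also apart in array-wide features at 56 days. Array medians were 552 to 606 in controls and 670 to 723 in mdx, and albumin signals were 668 to 15483 and 179 to 347. With quantile normalization, or without the arrays with albumin above 10000, 3 members were called at this age. The part of these features in the calls was not tested further.

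The count of members whose mdx and control arrays did not overlap is given beside the share of all probe sets that did so. It was 4 of 14 at 7 days (all lower; 15.4% of all probe sets in either direction), 2 at 14 days (lower; 12.9%), 3 at 23 days (lower; 22.9%) and 2 at 28 days (lower; 21.5%). At 56 days it was 4 (3 lower and 1 higher; 36.9%), and at 112 days 1 (higher; 23.5%). Dmd and Sgca 160631_s_at each had all mdx arrays lower at 4 ages, which 1.39% of all probe sets had at 4 ages or more.

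**Figure D4:**
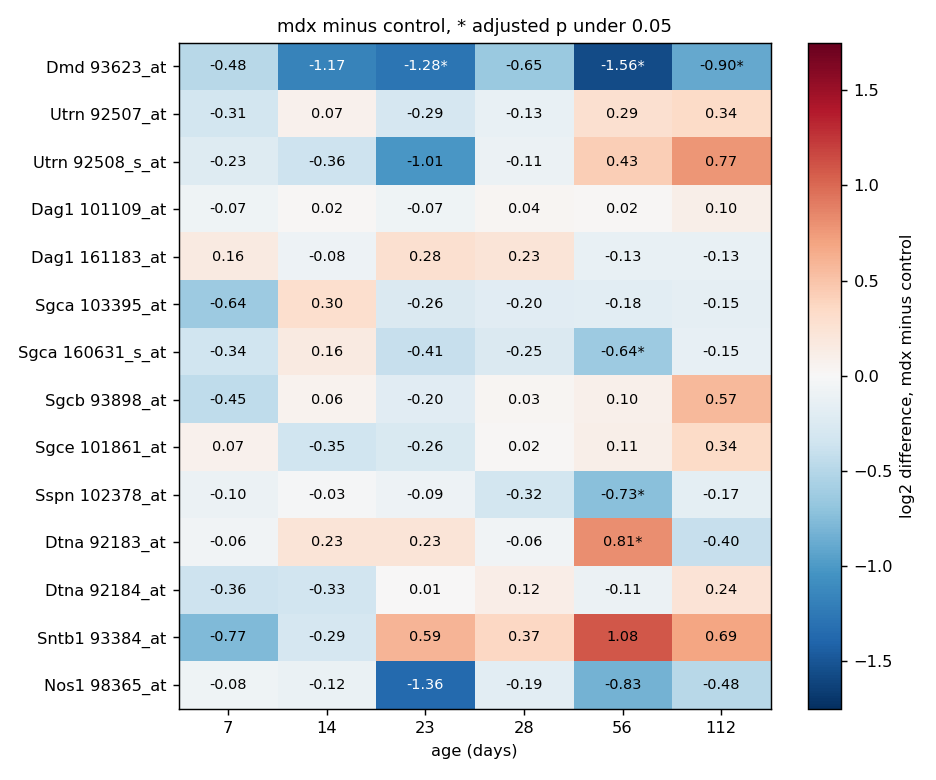
Log2 difference, mdx minus control, of the 14 probe sets (rows) at the 6 ages in days (columns), coloured from blue (lower in mdx) to red (higher); a star marks an adjusted p under 0.05. Stars fall on Dmd at 23, 56 and 112 days and on Sgca 160631_s_at, Sspn and Dtna 92183_at at 56 days.

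Dependence of the genotype difference on age was called for 0 of the 14 probe sets, against 8.93% of all, with 3 members at an unadjusted p under 0.05 and Sspn lowest (adjusted p = 0.0677). For the late minus early contrast 1 was called lower, Sspn, against 5.24% of all, and 0 higher, against 7.14%. Most members were called as changing across ages, as were most probe sets. Features that arrays of an age share, such as the low medians at 23 days, were not told apart from age. In controls 12 of the 14 changed across ages, all but Dmd and Nos1, against 62.4% of all probe sets. The count was 8 without the arrays high in albumin, where both Utrn probe sets, Sgcb and Dag1 101109_at were lost, and 9 with the Gapdh covariate. In mdx 8 of the 14 did so, against 55% of all: Dmd, Dag1 101109_at, both Sgca probe sets, Sgce, Sspn and both Dtna probe sets.

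The course with age differed between members. Control means peaked at 7 days for both Utrn probe sets, Dag1 101109_at, Sgcb, Sgce, Dtna 92183_at and Sntb1. They peaked at 14 days for Dmd and Dag1 161183_at. At 23 days the peaks were those of both Sgca probe sets (10120 ± 173 for 160631_s_at), Sspn (16112 ± 525) and Dtna 92184_at. The highest Nos1 mean was at 56 days. The F test across control ages called neither Nos1 nor Dmd (adjusted p = 0.859 and 0.147). The control mean of Sspn at 112 days was 56.6% of that at 7 days. In mdx Sspn changed most strongly of the members by its p (adjusted p = 3.43e-08), from 15105 ± 929 at 23 days to 6489 ± 350 at 56 days. The lowest control mean of both Sgca probe sets was at 14 days, 4595 ± 935 and 3564 ± 806. Without the arrays of 14 and 23 days, 5 members changed with age in mdx, and in controls the calls of Sgca 160631_s_at and Dtna 92184_at were lost. The part of the low median signals of the 23-day arrays in these courses was not tested.

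Across the 36 arrays some members tracked each other, as described by correlations of log2 signals, which share the arrays, their ages and their scaling. Dag1 101109_at and Sgce had r = 0.80, and 0.62 after group means were taken away. Utrn 92507_at and Sgcb had r = 0.64 and 0.53, and Sgca 160631_s_at and Sspn 0.66 and 0.38. Dmd followed no other member closely, the highest being Nos1 at 0.48 and 0.23. The gene most like Dmd over the 36 arrays was Apobec2 (r = 0.77), followed by Txnip (0.66), Ptprm (0.66), Usp9x (0.65) and Kitl (0.65). After group means were taken away these r were 0.50, -0.05, 0.17, 0.34 and 0.20. The r over all arrays holds the genotype difference of Dmd itself, so the mean differences of the 5, -0.51, -0.51, -0.26, -0.17 and -0.39, are a description of how they were chosen. Those most like Utrn 92507_at were Eny2 (0.74), Zfp292 (0.73), Selenof (0.70), Nono (0.69) and Sox4 (0.69), with r from 0.54 to 0.62 after group means were taken away.

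Further genes of the complex and its surroundings came from lists of 75 genes, of which 48 were on the array and 44 were tested. In all, 13 were called for the mean over ages, 10 higher, against 10.4% of all probe sets, and 3 lower, against 7.41%, and 31 were not. These counts read each gene by its brightest probe set. Among the 31, other probe sets were called for Capn3 (2 of its 3), Itga7 (1 of 3) and Tln1 (1 of 3). Of the other subunits of the complex, Sgcd, Sntb2 and Dtnb were on the array and too dim to test, reading at most 442, 231 and 294. Of 7 genes that add sugars to dystroglycan, such as Pomgnt1 and Gmppb, 0 were called and 2 had an unadjusted p under 0.05 in limma, with a median difference of 0.14 against 0.03 for all probe sets. Of 23 partners at the membrane 7 were higher and 2 lower (median 0.03), of 5 nitric oxide genes 1 was higher (median -0.19), and of 9 regulators of utrophin 2 were higher and 1 lower (median 0.02). In lists of 5 and 9 genes such counts lie near the shares of all probe sets.

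The partner called with the lowest p was Cav3, caveolin-3, the coat protein of muscle caveolae that binds dystroglycan at the site dystrophin uses. Its probe set 162297_s_at rose by 0.44 ± 0.0508 as a mean (adjusted p = 1.04e-07), and its other probe set gave 0.35. At 112 days the Cav3 signal averaged 6749 ± 406 in controls against 12640 ± 1454.5 in mdx (SD, n = 3). Among other partners, Lama2, the laminin chain that dystroglycan binds, rose by 0.29 (adjusted p = 0.000438), the proteoglycan Hspg2 (perlecan) by 0.27 (adjusted p = 0.003) and Bgn (biglycan) by 0.46 (adjusted p = 0.000138). At 112 days Lama2 averaged 1679 ± 170.4 in controls against 3564 ± 435 in mdx. Its 7-day means were 3554 ± 415 and 3266 ± 380.1. Bgn gave 0.19 and no call on its other probe set. The laminin chains Lamb1, Lamc1 and Lamb2 gave -0.11, 0.02 and 0.01 as means and were not called. Of 7 fibroblast markers tested at 112 days, 5 were called higher, with a median difference of 1.54, and their part in these rises was not tested.

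Aqp4, the water channel that is held at the fast-fibre membrane through syntrophin, was lower in mdx by -0.75 ± 0.133 (102704_at, adjusted p = 0.0001), with -0.50 on its other probe set. At 7 days controls averaged 8019 ± 1815 and mdx arrays 3010.0 ± 813 (SD, n = 3). The 7-day groups do not overlap in the Gapdh 3′ to 5′ ratio, whose part in this difference was not tested. At 14 days the order was the other way, 1830 ± 267 in controls and 2260 ± 224 in mdx, with no call (0.31, adjusted p = 0.988). The 56-day means were 1605 ± 758 and 662 ± 215. Actg1, the cytoplasmic gamma-actin that dystrophin can bind, rose by 0.18 (adjusted p = 0.0184). Dynll1, a dynein light chain known to bind neuronal nitric oxide synthase, rose by 0.46 (adjusted p = 5.61e-06), from 5927 ± 926 to 15909 ± 3479 at 112 days.

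Among regulators of utrophin transcription, Sp1 rose by 0.33 (adjusted p = 0.0189) and Egr1 by 0.45 (adjusted p = 0.000241). Ppargc1a, a coactivator of oxidative metabolism, fell by 0.39 (adjusted p = 0.0168). The Sp1 call was lost with quantile normalization (0.27, adjusted p = 0.0669) and that of Ppargc1a with the replicate number as a block (adjusted p = 0.0628) or with the Gapdh ratio given further on as a covariate (-0.32, adjusted p = 0.0696). The remaining 3 called genes were Rapsn and Krt18, higher, and Krt19, lower. Gabpa and Gabpb1, the subunits of a factor known to bind the N-box, gave -0.04 and 0.12 and were not called (adjusted p = 0.763 and 0.303).

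**Figure D5:**
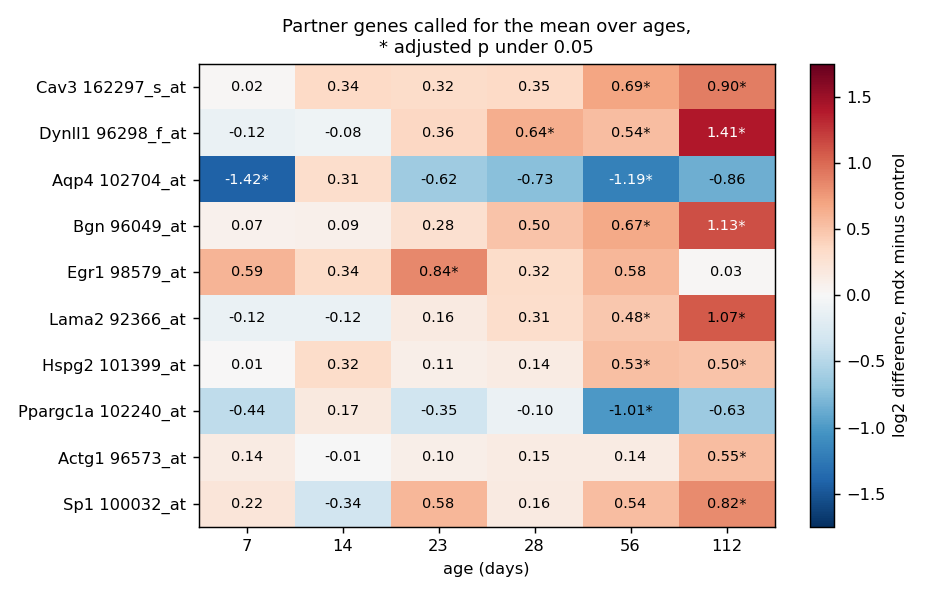
Log2 difference, mdx minus control, of the 10 named partner genes (rows, with probe set) at the 6 ages in days (columns), coloured from blue (lower in mdx) to red (higher); a star marks an adjusted p under 0.05. Cav3, Dynll1, Bgn, Lama2 and Hspg2 carry stars at 56 and 112 days, and Aqp4 at 7 and 56 days.

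Several features of the arrays stood beside these results. Albumin, a liver protein, read above 10000 on 9 of the 36 arrays, and without them the difference of Dmd was -1.31 at 112 days (adjusted p = 0.0574) and that of Ppargc1a as a mean was -0.17 (adjusted p = 0.535). Calls of Actg1 and Sp1 were lost there too (adjusted p = 0.254 and 0.121). Gapdh has control probe sets at its 3′ and 5′ ends. The signal of the former over the latter ran from 0.0357 to 0.971 over the arrays. On every array the 5′ probe set thus read higher, and what sets this ratio here was not established. The 7-day controls had 0.0357 to 0.147 and the 7-day mdx arrays 0.32 to 0.83. The 23-day groups did not overlap in this ratio either, with 0.35 to 0.361 in controls and 0.431 to 0.493 in mdx. With the ratio as a covariate 0 members were called at 7 days, as without it, and 1 at 23 days, Dmd. The 7-day difference of Sgcb then moved from -0.45 to -0.15 (adjusted p = 0.945), that of Sntb1 from -0.77 to -0.97 (adjusted p = 0.772) and that of Dmd from -0.48 to -0.24 (adjusted p = 0.924). Arrays of a group correlated with r from 0.884 to 0.975. All 12 markers of mature fibres were measured in every group, and the signal of Acta1 ranged from 151 to 54486 over the arrays.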

How the data were processed

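Each of the 36 arrays has 1 deposited column of probe set intensity, on a linear scale. Neither the software behind the signals nor its settings are given in the sources used here. Averaged between percentiles 2 and 98, signals came to 1499.2 to 1499.7 on every array, so the columns had been brought to a common level before deposit and were used as deposited. Array medians ran from 450.6 to 723.4, and the number of arrays limits precision.

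The 66 array controls were left out and 9291 probe sets with at least 3 arrays above 374.5 were kept. limma 3.58.1 in R 4.3.3 was run on log2(value + 32) with 12 group means, trended eBayes, 24 residual degrees of freedom and 6.14 prior ones at the median. All p-values come from limma and were adjusted by the Benjamini-Hochberg method over the 9291. The steps were tested on simulated data. Groups are those of the labels.

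The members, the partner and marker lists and the late minus early contrast were chosen with earlier results of these data known. Partner genes were named by the lowest adjusted p for the mean, at most 10, with 1 probe set per gene (highest mean signal), and the genes most like Dmd and Utrn by the highest r over the 36 arrays, 5 each. Krt18, Krt19, Rapsn, Lamb1, Lamc1, Lamb2, Gabpa, Gabpb1 and the dim genes were named after their values were seen. Gene names follow the platform annotation, in which 10833 probe sets have 1 symbol, 396 several and 1193 none. Replicate numbers did not pair arrays: of 18 same-numbered pairs 1 had deviations correlated above 0.1 (range -0.23 to 0.15).

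Alternatives were pseudocounts of 16 and 100, no filter or percentile 60, array weights, quantile normalization, a block for the replicate number, the 6 arrays of an age alone, the Gapdh ratio as a covariate, and leaving out each array, or those with albumin above 10000. For the partner genes, and for the 7-day values with the Gapdh ratio, these were chosen after seeing the data.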

Additional observations from a re-analysis of the deposited data

Results flagged for a closer look

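Dependence of the genotype difference on age was called for 0 of the 14 probe sets by limma's F test, with 3 at an unadjusted p under 0.05, and 3 members stood out by a narrower measure. The difference of Sspn at 56 and 112 days minus that at 7 and 14 days was -0.39 on the log2 scale, by limma's test of the contrast itself (adjusted p = 0.0484, lost in 23 of 36 fits without 1 array). Every mdx array of Sgcb was above every control array at 112 days (log2 difference 0.57) and below at 7 days (-0.45, or -0.15 with the Gapdh 3′ to 5′ ratio as a covariate). Every mdx array of Sntb1 was above every control array at 56 days (1.08) and below at 7 days (-0.77), at low signals. These opposite pairs of ages were noticed in the data, and the difference between those ages was not itself tested. The related late minus early contrast was not called for either gene (adjusted p = 0.146 and 0.0834).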

How the results depend on the processing

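Under settings other than leaving out 1 array, 243 of 276 recomputed differences kept their direction and their side of the threshold. Of 107 recomputed counts of calls, 70 were equal to the reported count and 87 lay within 1.5 times of it. For the others the cause was not tested unless stated. The mean falls of Dmd, Sgca 160631_s_at and Sspn and their 56-day calls were kept under every setting in which they were tested; the percentile 60 filter drops Dmd, which alone takes the counts at 23 and 112 days from 1 to 0.

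The number of members called at 23 days (1) was 0 with the replicate block, 0 in a fit on the 6 arrays of that age and 5 with array weights (Dmd, Nos1, Sgca 160631_s_at and Utrn 92508_s_at lower, Dag1 161183_at higher). At 112 days (1) it was 0 with no filter, with the block, without the arrays with albumin above 10000 and on its own 6 arrays. At 14 days (0) it was 1 with array weights, which was Dmd. The late minus early count (1) was 2 at a pseudocount of 100, where Sntb1 joined Sspn, and 0 with no filter, with quantile normalization, with the block, without the albumin arrays and with the Gapdh covariate. Dependence on age (0) was 4 with array weights.

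Replicate numbers gave no pairing, and with the replicate block 6 members changed with age in controls and 4 in mdx, against 12 and 8. Without the albumin arrays these counts were 8 and 6 (Utrn, Sgcb and Dag1 101109_at lost in controls), with the Gapdh covariate 9 and 8 (Utrn and Sgcb lost in controls). The mdx count was 5 without the arrays of 14 and 23 days. The block costs residual degrees of freedom. With it the control calls kept were Sgce, Sspn, both Sgca probe sets, Dag1 161183_at and Dtna 92183_at. The mdx calls kept were Sspn, both Sgca probe sets and Dtna 92183_at.

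Mean differences near 0 changed sign under some settings, none of them a call. Array weights gave Utrn 92507_at 0.027, Sgce 0.026 and Dtna 92184_at 0.081. The Gapdh covariate gave Utrn 92507_at 0.023, and quantile normalization gave Sgcb -0.0059. Without the albumin arrays the values were -0.029 for Dag1 101109_at, -0.013 for Sgcb, 0.204 for Dtna 92184_at and -0.0096 for Sntb1. The 56-day call of Dtna 92183_at was lost with no filter (adjusted p = 0.0568), quantile normalization (0.66, adjusted p = 0.0973), the Gapdh covariate (adjusted p = 0.062), on its own 6 arrays (adjusted p = 0.0977) and without the albumin arrays (adjusted p = 0.173). Nos1 was called for the mean with quantile normalization (-0.61, adjusted p = 0.0421) and array weights (-0.54, adjusted p = 0.0438). Quantile normalization moved the median difference of all probe sets by -0.14 at 56 days.

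With each array left out in turn, the counts ran from 0 to 0 at 7, 14 and 28 days, 0 to 3 at 23 days, 3 to 4 at 56 days, 0 to 1 at 112 days, 3 to 4 for the mean, 0 to 2 for dependence on age, 0 to 2 for late minus early, 10 to 12 for control ageing and 8 to 11 for mdx ageing. The mean of Dmd ran from -1.06 to -0.96 and that of Utrn 92507_at from -0.0498 to 0.0507. Sgcb ran from -0.038 to 0.065, Sgce from -0.047 to 0.0197, Dag1 101109_at from -0.014 to 0.026 and Dtna 92184_at from -0.16 to 0.072, and so changed sign.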

Other observations

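Markers of the other cells that diaphragm can hold were read from the same fit, for the mdx minus control difference averaged over the 6 ages, for which 10.4% of all probe sets were called higher and 7.41% lower. All 9 regenerating fibre markers and all 9 macrophage markers tested were called higher, with median log2 differences of 2.07 and 1.13. Of 12 mature fibre markers, 0 were called higher and 2 lower, with a median of -0.17. Of 7 fibroblast markers tested, 4 were called higher and 0 lower, with a median of 0.37. Of 7 endothelial markers, 0 were called higher and 3 lower, with a median of -0.16. Of 5 smooth muscle markers, 1 was called higher and 1 lower, and the median was -0.02. Of 4 Schwann cell markers tested, 0 were called higher and 2 lower, with a median of -0.34. For the 6 liver markers tested, limma with Benjamini-Hochberg adjustment called 0 in either direction, 0 had an unadjusted p under 0.05, and their median was -0.46. The median of all tested probe sets was 0.03. The part of these cells in the members' differences was not tested.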
